A study of Etheostoma caeruleum with 18 samples.

Results

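The 100 gene pairs described here are pairs of assembled genes that belong to one component of a de novo transcriptome assembly and whose levels ran most strongly against each other over 18 livers of the rainbow darter, Etheostoma caeruleum. They were chosen from the levels themselves. A component was taken as the identifier without its final g number, genes with a mean of at least 1 and below 50 TPM (a gene's share of the transcripts in its library, weighted for length and scaled to a fixed total) were kept, and Spearman's rank correlation was computed over the 18 fish for every pair of kept genes within a component. The 100 pairs with the most negative rank correlation hold 194 genes in 94 components. The rule could form 5052 pairs from 6837 genes in 2978 components, out of 302933 assembled genes in 253445 components in all. Because this correlation chose the pairs, every measure of opposition, of division and of evenness over the 18 fish is given as a description, with no test, and tests are given for differences between the exposure groups alone. The identifiers all begin with TRINITY_, which is left out from here on.

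Trinity joins overlapping reads into transcripts without a genome and groups the transcripts into components and, within them, genes. The genes of a component were assembled from one cluster of overlapping sequence, so they can be close paralogs, alleles or pieces of one transcript. RSEM divides a read that matches several assembled sequences between them by likelihood, so the level of a single gene of such a pair is an estimate that depends on this division and is uncertain, while the sum of the pair depends on it less. The files pair no identifier with a gene name, so no role is given for any member, and the tissue could not be checked against liver markers.

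The study asked how the liver transcriptome responds to each mirror-image form of venlafaxine, an antidepressant that blocks the reuptake of serotonin and noradrenaline. The fish were 6 held with S-venlafaxine at 1 µg/L, 6 held with R-venlafaxine at 1 µg/L and 6 controls in tanks that received no venlafaxine, each for 14 days. All 18 were caught wild in the Grand River in Ontario, acclimated for 14 days before exposure, and gave 1 liver RNA library each. The labels call them biological replicates and leave their tanks unnamed, so a difference between tanks cannot be told apart from a difference between groups. The tests take the fish of a group as independent, which shared tanks could break. The library names also carry a letter A, B or C within each group, which the labels do not explain. A block for this letter was among the alternatives fitted.

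The deposited libraries hold 47.4 to 51.5 M estimated counts in S-venlafaxine fish, 51.7 to 62.4 M in R-venlafaxine fish and 43.8 to 65.6 M in controls. The totals of S-venlafaxine libraries were all lower than those of R-venlafaxine libraries, and the part of this difference in any result between them was not tested. Whether the totals equal numbers of reads is not known, nor how far they reflect sequencing depth. The ranks of a pair's share followed the library totals weakly, with a median size of rank correlation of 0.128 over the 100 pairs and 0.162 over all 5052. In bulk liver RNA, fewer cells of a type and less RNA per cell cannot be told apart.

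The opposition of the 100 pairs was moderate in size. Picking the lowest of many values yields negative correlations even among unrelated genes. Whether the opposition exceeds what such a choice alone would give was not tested. The rank correlation ran from -0.72 to -0.43 with a median of -0.50, while the median over all 5052 pairs was 0.17 and 29.3% of them were below 0. Genes of one component therefore rose and fell together more often than against each other, and the 100 pairs are the lowest 1.98%. After TMM scaling of the TPM, which evens out differences in composition between libraries, the median over all pairs was 0.0857 and 39.2% were below 0, so the excess of genes moving together was smaller on that scale. Pearson's r on the TPM scale was below 0 in all 100 pairs and ran from -0.82 to -0.19. The last pair inside the limit, DN6102_c2_g1 and g2, had a rank correlation of -0.4306, and the first outside, DN6239_c0_g1 and g2, had -0.4303. Their sums had coefficients of variation (CV, the SD divided by the mean) of 0.121 and 0.117. After TMM scaling DN6102_c2 had -0.558, at rank 56 of the 5052, and DN6239_c0, outside the limit, had -0.748, at rank 2. The member pair DN1100_c0_g1 and g2 had 0.0918 on that scale.

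**Figure D1:**
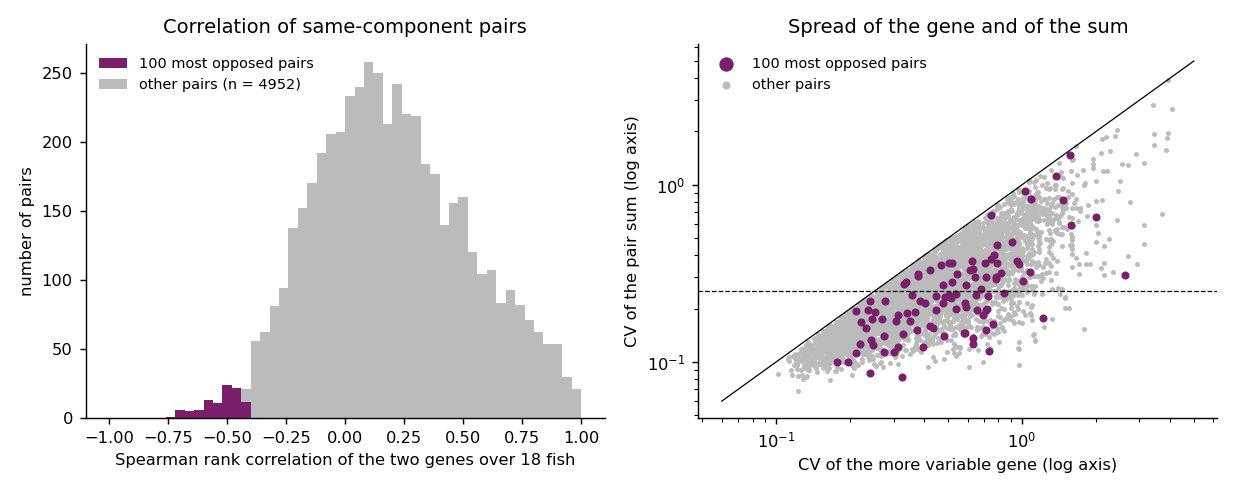
Left, number of same-component pairs by Spearman rank correlation over 18 fish, the 100 pairs in purple and the other 4952 in grey. Right, the CV of the pair sum against the CV of the more variable gene of the pair, both on log axes, with a solid line of equality and a dashed line at a sum CV of 0.25. The 100 pairs form the left tail, up to a rank correlation of -0.43. The CV of their sums ran from 0.0824 to 1.48 (median 0.220), against 0.0681 to 3.92 (median 0.233) in the other pairs.

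Whether the levels of both genes offset each other in the sum was read from the variance ratio. This is the variance of the sum over the 18 fish divided by the sum of the variances of both genes. It is 1 where the genes vary independently and 0 where they exchange exactly. Over the 100 pairs the ratio ran from 0.302 to 0.988 with a median of 0.705, and the median over all 5052 pairs was 1.09. It was at or below 0.5 in 11 of the 100 pairs and in no other pair of the 5052. The reading depends on the scale. On log2(TPM + 0.1), the variance of the log2 sum divided by the mean variance of the log2 genes had a median of 0.312 over the 100 pairs, from 0.0332 to 1.24, and of 0.566 over all pairs. That ratio is built differently, since it divides by a mean and weighs low genes more.

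The unequal size of the movements limits how far the levels of both genes can cancel in the sum. The smaller SD of a pair was a median of 0.355 of the larger, below the 0.474 of all pairs, and it was under 0.5 of the larger in 62 of the 100 pairs, against 52.7% of all pairs. Only 13 of the 100 had SDs within 0.8 of each other, against 17.8% of all. The lower gene by mean held a median of 26.2% of the pair's mean level, and under 20% in 41 pairs, against 27.3% of all pairs.

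By how use was divided in single fish, the 100 pairs fell into 3 kinds. In 42 pairs the same gene was the higher one in all 18 fish, so that the use tilted but never turned over, against 51.7% of all pairs. In 53 pairs the higher gene differed between fish without a full exchange. In the other 5 pairs at least 1 fish had 90% or more of the sum in the first gene and at least 1 fish had 90% or more in the second, here called full replacement, against 3.5% of all pairs. The 5 are DN10186_c1_g1 and g2, DN1636_c0_g1 and g4, DN3051_c0_g1 and g2, DN162_c7_g2 and g3, and DN348_c2_g1 and g2. With or without a full exchange, the higher gene differed between fish in 58 of the 100 pairs, against 48.2% of all pairs. In 31 pairs neither gene reached 90% in any fish, against 55.7% of all pairs.

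DN10186_c1 came nearest to an exchange and had the lowest variance ratio of all, 0.302. Its 2 genes had nearly equal means, 3.69 TPM for g1 and 3.47 TPM for g2, and these are the only genes listed in the component. The share of g1 in the pair ran from 21.4% to 89.1% with a median of 54.8% in S-venlafaxine fish, from 0% to 100% with a median of 6.0% in R-venlafaxine fish, and from 0% to 100% with a median of 97.8% in controls. No S-venlafaxine fish had 90% or more in one gene, whereas 4 of 6 R-venlafaxine fish and all 6 controls did. This contrast depends on the limit, since S-venlafaxine fish 2 and 4 stood at 89.1% and 86.8% of g1. Both genes were above 0 in every S-venlafaxine fish, and also in R-venlafaxine fish 4 and 6 and in control 3. In all, 5 fish stood at 90% or more of g1, 5 at 90% or more of g2, and 8 lay between. The sum was still not even: it ran from 4.7 to 11.1 TPM (median 7.04) in S-venlafaxine fish, from 3.48 to 8.58 TPM (median 5.59) in R-venlafaxine fish and from 4.22 to 11.7 TPM (median 7.93) in controls, a CV of 0.357 over the 18 fish. The groups overlapped in share and in sum.

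In DN1636_c0 and DN3051_c0 the genes changed places at different levels, and the sum was uneven. For DN1636_c0, g1 reached at most 4.25 TPM in S-venlafaxine fish, 9.93 TPM in R-venlafaxine fish and 17.3 TPM in controls, while g4 reached 20.7 TPM in S-venlafaxine fish, 44.6 TPM in R-venlafaxine fish and 50.8 TPM in controls. In this pair 6 fish had 90% or more in g1, 9 had it in g4, and the sum had a CV of 0.816. DN3051_c0 had 10 fish at 90% or more of g1 and 6 at 90% or more of g2. Its sum ran from 8.91 to 67.8 TPM (median 33.1) in S-venlafaxine fish, from 2.86 to 100.3 TPM (median 13.4) in R-venlafaxine fish and from 4.4 to 18.5 TPM (median 7.2) in controls. The 5 highest sums of DN3051_c0, from 48.4 to 100.3 TPM in 3 S-venlafaxine and 2 R-venlafaxine fish, had 90% or more in g1, whereas the next, 18.7 TPM in R-venlafaxine fish 1, was all g2.

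DN348_c2 is less an exchange than a gene present in some fish beside a low partner. Its g2 stood at 50.4 to 138.1 TPM in 4 S-venlafaxine fish, at 67.6 TPM in 1 R-venlafaxine fish and at 75.8 TPM in 1 control, and at no more than 1.43 TPM in the other 12 fish. Its g1 ran from 0.42 to 2.64 TPM over all 18 fish. The variance ratio of 0.988 was the highest of the 100 pairs, and the sum had a CV of 1.48. DN162_c7, named here after its values were seen, rests on few fish, because g3 was listed at 0 in 14 of the 18, among them all 6 S-venlafaxine fish. In S-venlafaxine fish 4 both of its genes were listed at 0, so that fish has no share.

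**Figure D2:**
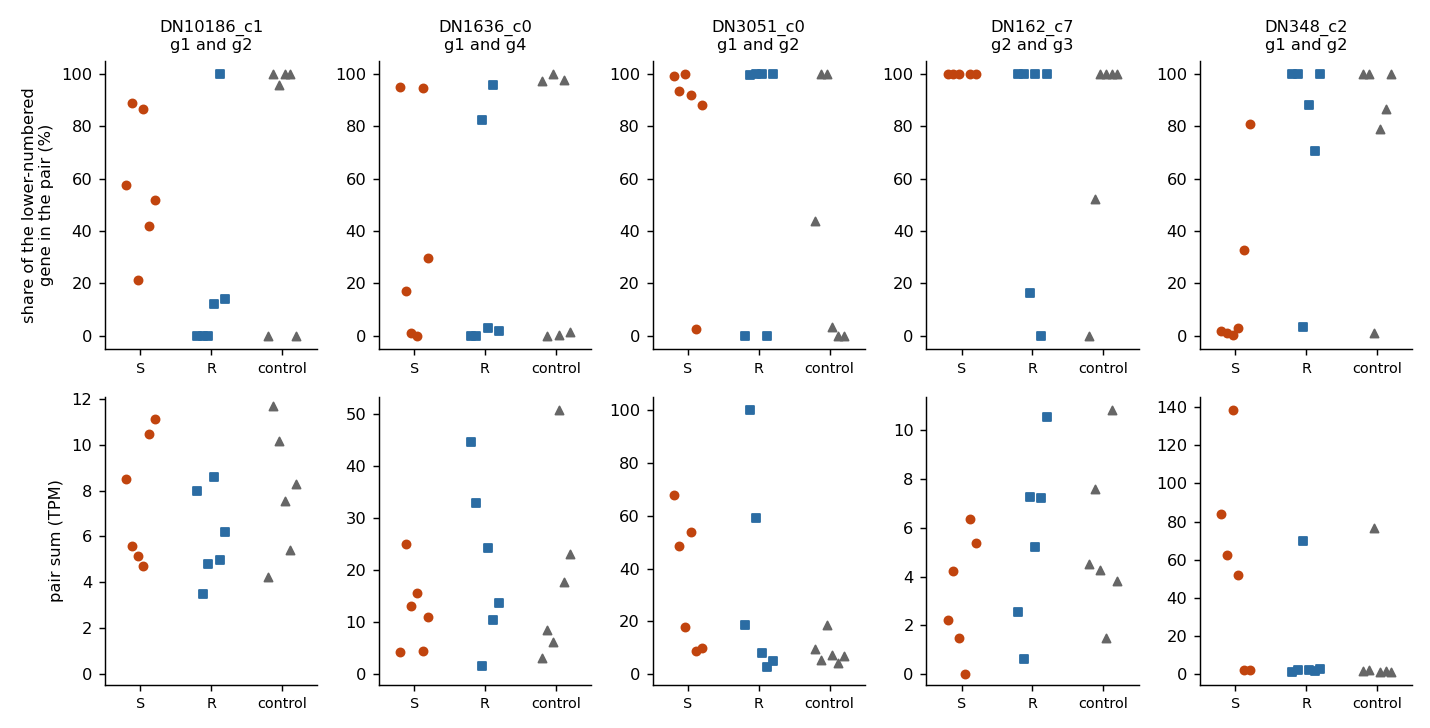
The 5 pairs in which some fish had 90% or more of the sum in one gene and others 90% or more in the other. The upper row gives the share of the lower-numbered gene (%) and the lower row the pair sum (TPM), 1 point per fish, with S-venlafaxine, R-venlafaxine and control from left to right. For DN10186_c1 the shares reach 0% and 100% while the sum stays within 3.48 and 11.7 TPM, and for DN348_c2 the sum reaches 138.5 TPM.

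The 4 pairs with the most negative rank correlation, the extremes of the set, differed in how far the levels offset each other in the sum. Their variance ratios were 0.556, 0.769, 0.714 and 0.490 in the order described below. Those of DN147_c4 and DN31_c6 lay above the median of 0.705 of the 100 pairs. DN1428_c1_g1 and g2, with a rank correlation of -0.72, are the only genes of their component. Gene g1 ran from 6.92 to 11.7 TPM (median 9.05) in S-venlafaxine fish, from 7.59 to 12.4 TPM (median 9.76) in R-venlafaxine fish and from 5.44 to 11.5 TPM (median 9.79) in controls. Gene g2 ran from 0.92 to 11.9 TPM (median 5.73) in S-venlafaxine fish, from 1.08 to 15.5 TPM (median 5.43) in R-venlafaxine fish and from 0.61 to 13.3 TPM (median 7.04) in controls. Gene g2 carried most of the movement, with an SD of 4.63 TPM against 1.79 TPM for g1, so the sum was lower in fish low in g2. The variance ratio was 0.556, below the lower quartile of 0.604 of the chosen pairs. The CV of the sum was 0.237, above the 0.193 of g1 alone, so the sum was not even. After TMM scaling the rank correlation of this pair was weaker, at -0.496 and rank 89. On that scale the pairs named next, of DN147_c4 and DN31_c6, stayed at -0.728 and -0.732. The pair DN3226_c1_g3 and g4 had -0.594.

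DN147_c4_g1 and g3, also at -0.72, and DN31_c6_g1 and g2, at -0.71, moved unequally as well. In DN147_c4, g1 averaged 42.2 ± 9.25 TPM in S-venlafaxine fish, 35.4 ± 8.74 TPM in R-venlafaxine fish and 40.9 ± 11.9 TPM in controls (SD, n = 6 each). Its partner g3 averaged 6.24 ± 1.45 TPM in S-venlafaxine fish, 7.75 ± 1.80 TPM in R-venlafaxine fish and 5.91 ± 1.36 TPM in controls (SD, n = 6 each). Gene g1 was the higher one in all 18 fish, the sum was even with a CV of 0.191, and the pair was 1.66% of the level of its component, whose remaining gene lay outside the range of means. DN31_c6 had no even sum, with a CV of 0.458, and its sums reached 5.56 TPM in S-venlafaxine fish, 7.74 TPM in R-venlafaxine fish and 10.96 TPM in controls. Its g2 was at 5.85 TPM in control 2 and at most 2.28 TPM in the other fish. Without control 2 the variance ratio of DN31_c6 was 0.841.

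DN3226_c1_g3 and g4, at a rank correlation of -0.71, had a variance ratio of 0.49 and were among the 11 pairs at or below 0.5. Its sum averaged 4.05 ± 0.859 TPM in S-venlafaxine fish, 4.34 ± 0.877 TPM in R-venlafaxine fish and 4.13 ± 0.852 TPM in controls (SD, n = 6 each). The groups overlapped closely. The CV of the sum over the 18 fish was 0.197, while g3 alone had 0.716 and g4 alone 0.232. Gene g3 also forms a member pair with g1 of this component, at a rank correlation of -0.503. That g1 had a mean of 21.7 TPM, against 1.36 TPM for g3 and 2.81 TPM for g4. The sum of g3 and g4 is therefore a small part of the component, and g3 has no single partner.

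DN3828_c0_g1 and g2 and DN5236_c1_g1 and g2 had the next lowest variance ratios after DN10186_c1, 0.324 and 0.368. In DN3828_c0, g1 ran from 8.06 to 20.8 TPM (median 14.2) in S-venlafaxine fish, from 3.82 to 14.6 TPM (median 9.39) in R-venlafaxine fish and from 1.92 to 20.6 TPM (median 6.08) in controls. Its g2 ran from 0 to 6.16 TPM (median 4.44) in S-venlafaxine fish, from 3.83 to 11.2 TPM (median 5.79) in R-venlafaxine fish and from 0.25 to 15.4 TPM (median 7.70) in controls. Control 3 stood apart with 28.7 TPM in the sum, and without it the variance ratio was 0.191. In DN5236_c1 the sum had a CV of 0.2455 and stayed within 3.63 and 6.55 TPM in S-venlafaxine fish, 2.76 and 6.13 TPM in R-venlafaxine fish and 2.67 and 5.51 TPM in controls. Its g2 was listed at 0 in 5 fish, 3 with S-venlafaxine and 2 with R-venlafaxine.

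**Figure D3:**
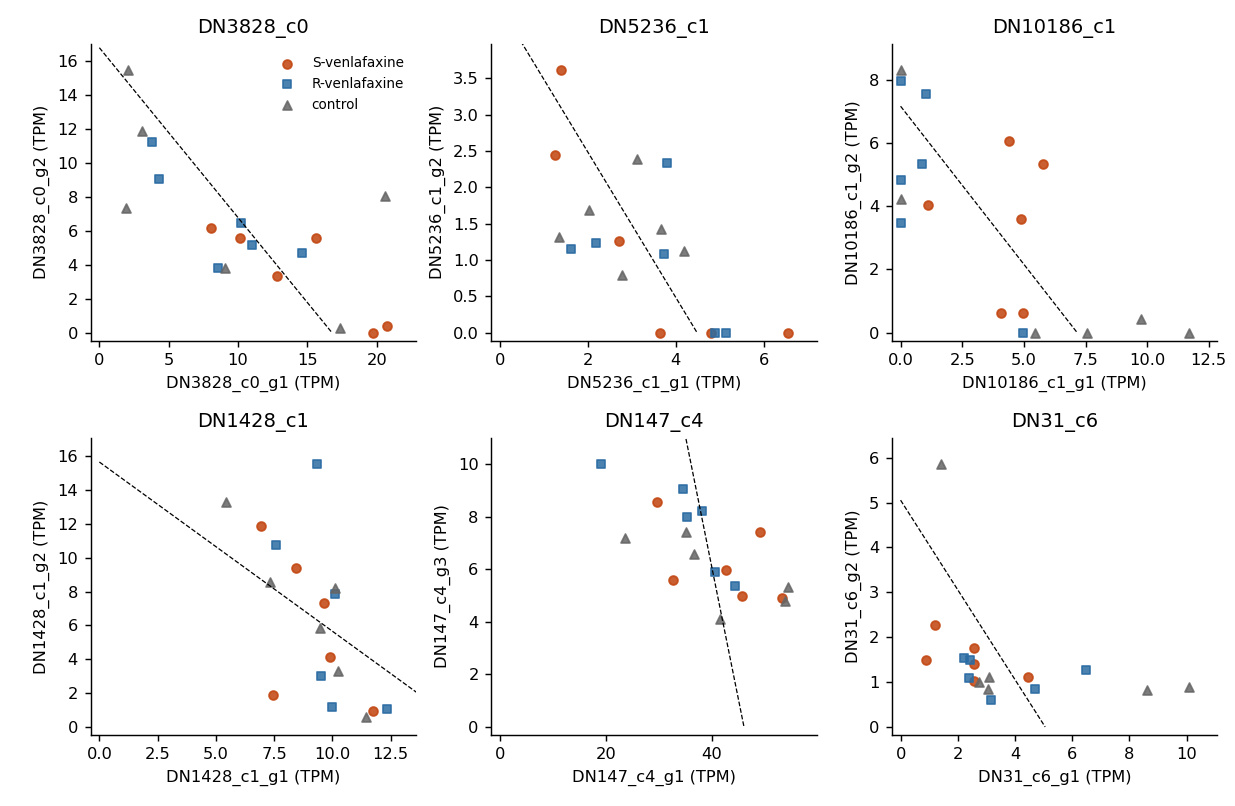
Level of the second gene against the first (TPM) in each of 18 fish for the 3 pairs with the lowest variance ratio, above, and the 3 with the most negative rank correlation, below. The dashed line joins the points of equal sum at the mean sum of the pair, so an exact exchange would place all fish on it. Because the line lies at the mean sum, fish fall on both sides of it in every pair. In DN1428_c1 g2 spans 0.61 to 15.5 TPM and g1 only 5.44 to 12.4 TPM.

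The sum of a pair was even in 47 of the 100 pairs, where even means a CV of the sum below that of both genes and no more than 0.25. The same held for 32.8% of all 5052 pairs. This difference cannot be read as a finding, since a negative rank correlation lowers the variance of a sum by construction. In level terms the sums were about as variable as those of all pairs, with a median CV of 0.220 over the 100 pairs and 0.232 over all. With TMM-scaled TPM the order was reversed, at 0.2319 over the 100 pairs and 0.2196 over all. On TPM as deposited, the more variable gene of the pair had a median CV of 0.520, against 0.395 over all pairs, and the steadier gene 0.238, against 0.215.

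No pair combined full replacement with an even sum. An even sum was found in 25 of the 42 pairs with one gene higher in every fish (59.5%), in 22 of the 53 in which the higher gene differed without a full exchange (41.5%), and in 0 of the 5 with full replacement. In those 42 the lower gene held a median of 14.2% of the mean level, with a median SD of 0.223 of the larger. Their sums were therefore mostly the level of 1 gene. The shares of even sums in the first 2 kinds were not computed over all 5052 pairs. Over all 5052 pairs, too, 0 had both. The limits of 90% and of a CV of 0.25 were set by choice, and at 80% the number of the 100 pairs with full replacement was 16 instead of 5. The number at 80% was not counted over all 5052 pairs. In the 30 pairs whose component lists 2 genes and no more, so that the pair is the whole component, the median CV of the sum was 0.228 and 13 sums were even, against 0.234 and 423 of 1297 over all such pairs.

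The most abundant of the 100 pairs, DN111_c6_g1 and g2, is far from even. Its g1 ran from 2.97 to 174.6 TPM (median 35.7) in S-venlafaxine fish, from 8.11 to 54.7 TPM (median 35.01) in R-venlafaxine fish and from 6.91 to 114.6 TPM (median 31.4) in controls. Its g2 ran from 0.31 to 8.29 TPM (median 2.41) in S-venlafaxine fish, from 2.11 to 5.64 TPM (median 2.98) in R-venlafaxine fish and from 0 to 7.76 TPM (median 4.20) in controls. The movement of g2 was small beside that of g1, and the sum had a CV of 0.923 and a variance ratio of 0.948. DN1282_c14_g2 and g3 had the second highest variance ratio, 0.971, with an SD of 0.308 TPM for g2 and 5.87 TPM for g3.

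Opposition was also measured inside each group. Within the 6 fish of a group the rank correlation was below 0 in 93 of the 100 pairs for S-venlafaxine, in 94 for R-venlafaxine and in 92 for controls, against 33.5%, 32.1% and 37.8% of all pairs. It was below 0 in all 3 groups in 80 pairs, against 6.45% of all. With group means removed, it was below 0 in all 100 pairs and ran from -0.79 to -0.19. Because the fish of each group also entered the choice, these counts describe the choice further. Leaving out 1 fish at a time, the highest value of any pair was -0.326, in DN429_c8_g3 and g4.

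How many pairs a fish used one-sidedly ran over overlapping ranges in the groups. The number of the 100 pairs with 90% or more in one gene ran from 17 to 29 (median 25.5) in S-venlafaxine fish, from 22 to 30 (median 24.5) in R-venlafaxine fish and from 24 to 28 (median 26) in controls. The gene with the lower mean was the higher one in 13 to 18 pairs (median 17) of an S-venlafaxine fish, in 10 to 22 (median 14.5) of an R-venlafaxine fish and in 14 to 16 (median 15) of a control. The 3 groups overlapped in both counts, and the controls spanned the narrowest range. The level summed over all 100 pairs was 1540 ± 99.9 TPM in S-venlafaxine fish (SD, n = 6). It was 1446 ± 40.2 TPM in R-venlafaxine fish and 1421 ± 50.9 TPM in controls (SD, n = 6 each). A gene that is in 2 of the pairs counts in both. S-venlafaxine fish 5 had 1423 TPM, and every other S-venlafaxine fish lay above the highest control, at 1487 TPM. The R-venlafaxine fish, at 1410 to 1519 TPM, overlapped with both other groups. This difference was not tested.

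Few pairs of different components switched together. The shares of 2 pairs from different components had a median size of rank correlation of 0.190 over 4844 such combinations, and 3 of them reached 0.8. The highest, 0.88, joined DN2180_c1_g5 and g6 with DN19383_c0_g1 and g2. The others, both at 0.816, joined DN2428_c0_g1 and g3 with DN944_c0_g2 and g5 and with DN944_c0_g2 and g6. They share g2 of DN944_c0 and are not separate cases. Pairs of the same component share a gene or reads, and 4 of their 7 combinations reached 0.8. DN944_c0, with 8 listed genes, holds 3 of the 100 pairs, formed by g2 with g5, g2 with g6 and g3 with g5, so these are not separate cases. In each the higher-numbered gene was the higher one in all 18 fish, and each pair was 2.82% to 4.23% of the level of the component.

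The position of the genes in their component was also recorded. Adjacent g numbers were found in 73 pairs, against 63.3% of all, and g1 with g2 in 50, against 44.2%. The pair held 90% or more of its component's level in 49 of the 100 pairs and in 2224 of the 5052. A gene listed at 0 in at least 1 fish occurred in 23 pairs, against 17.6% of all.

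S-venlafaxine against control asked whether this exposure shifts use within the pairs. The group labels were not used in the choice of pairs, but the fish of all groups were, and a group difference of opposite sign in both genes adds to a negative correlation. With group means removed, 62 of the 100 pairs remained among the 100 most negative. The tests between groups are therefore not independent of the choice, and they were fitted over the whole tables. In edgeR's quasi-likelihood test 0 of the 193 member genes tested passed at a Benjamini-Hochberg adjusted p under 0.05, with 0.00167% of all 59733 genes tested passing. At an unadjusted p under 0.05 there were 7, or 3.63%, against 3.23% of all genes. The ratio of the genes of a pair, tested with limma on log2 of the first gene over the second after adding 0.1 TPM to each, passed in 0 of 100 pairs, with 0.0% of all 5052 passing, and 3 pairs had an unadjusted p under 0.05, against 5.36% of all. The sum of the pair, tested with limma on log2(sum + 0.1 TPM), passed in 0 of 100, with 0.0% of all passing, and 5 had an unadjusted p under 0.05, against 3.7% of all. DESeq2 called 0 members, with 0.109% of all genes called, and had 9 members at an unadjusted p under 0.05, with 4.54% of all genes there. The remaining member gene, DN162_c7_g3, listed at 0 in 14 fish, did not pass the filter on low counts and was not tested.

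The pair with the lowest p for the ratio after S-venlafaxine was DN2717_c1_g1 and g3. Gene g1 ran from 1.22 to 3.07 TPM (median 1.88) in S-venlafaxine fish and from 2.02 to 4.19 TPM (median 2.98) in controls, and g3 from 10.6 to 20.7 TPM (median 14.96) in S-venlafaxine fish and from 10.2 to 16.7 TPM (median 11.2) in controls. The groups overlapped in both genes. The log2 ratio differed by -0.96 (SE 0.323), with a 95% interval of -1.64 to -0.28, and did not pass (limma adjusted p = 0.914). In R-venlafaxine fish g1 ran from 2.04 to 3.61 TPM and g3 from 8.99 to 18.1 TPM. The sum after S-venlafaxine differed from control by 0.17 in log2 (SE 0.158, limma adjusted p = 0.998).

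DN348_c2, whose g2 was high in 4 of 6 S-venlafaxine fish and in 1 of 6 controls, had the largest log2 ratio difference of the 100 in this comparison, -5.65 (SE 2.09, limma adjusted p = 0.914). Its 95% interval of -10.08 to -1.23 is wide, and fish were either high or near 0 in g2. The log2 sum differed by 2.96 (SE 1.24, limma adjusted p = 0.998), and the edgeR difference of g2 was 2.05 (SE 2.199, adjusted p = 1). The log2 sum of DN3051_c0, whose medians were 33.1 TPM in S-venlafaxine fish and 7.2 TPM in controls, differed by 1.71 (SE 0.758, 95% interval 0.12 to 3.30, limma adjusted p = 0.998).

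R-venlafaxine against control gave 0 of 193 member genes by edgeR at an adjusted p under 0.05, with 0.0% of all genes tested passing. At an unadjusted p under 0.05 there were 7, or 3.63%, against 3.24% of all. By limma 0 of 100 ratios passed, with 0.0% of all 5052 passing, and 3 had an unadjusted p under 0.05, against 4.2% of all. Of the sums, 0 of 100 passed, with 0.0% of all passing, and 4 had an unadjusted p under 0.05, against 3.19% of all. DESeq2 called 1 member gene, DN429_c8_g4, with 0.117% of all genes called, and had 10 members at an unadjusted p under 0.05, with 4.54% of all genes there.

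DN429_c8_g3 and g4 had the lowest p for both the ratio and the sum after R-venlafaxine. Gene g4 ran from 0.52 to 3.36 TPM (median 1.15) in R-venlafaxine fish and from 0.99 to 9.56 TPM (median 7.34) in controls, and 5 of the 6 controls lay above all R-venlafaxine fish. Gene g3 averaged 3.12 ± 1.08 TPM in R-venlafaxine fish and 2.98 ± 0.935 TPM in controls (SD, n = 6 each), a log2 difference of 0.04 with a 95% interval of -0.62 to 0.70 in edgeR. The sum ran from 3.53 to 5.15 TPM (median 4.62) in R-venlafaxine fish and from 4.88 to 11.9 TPM (median 10.1) in controls, overlapping in 1 control. Gene g4 differed by -2.17 in log2 in edgeR (SE 0.552, 95% interval -3.34 to -1.01, adjusted p = 1) and by -2.18 in DESeq2 (adjusted p = 0.0403). The ratio differed by 2.11 (SE 0.745, limma adjusted p = 0.993) and the sum by -0.96 (SE 0.228, limma adjusted p = 0.512).

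**Figure D4:**
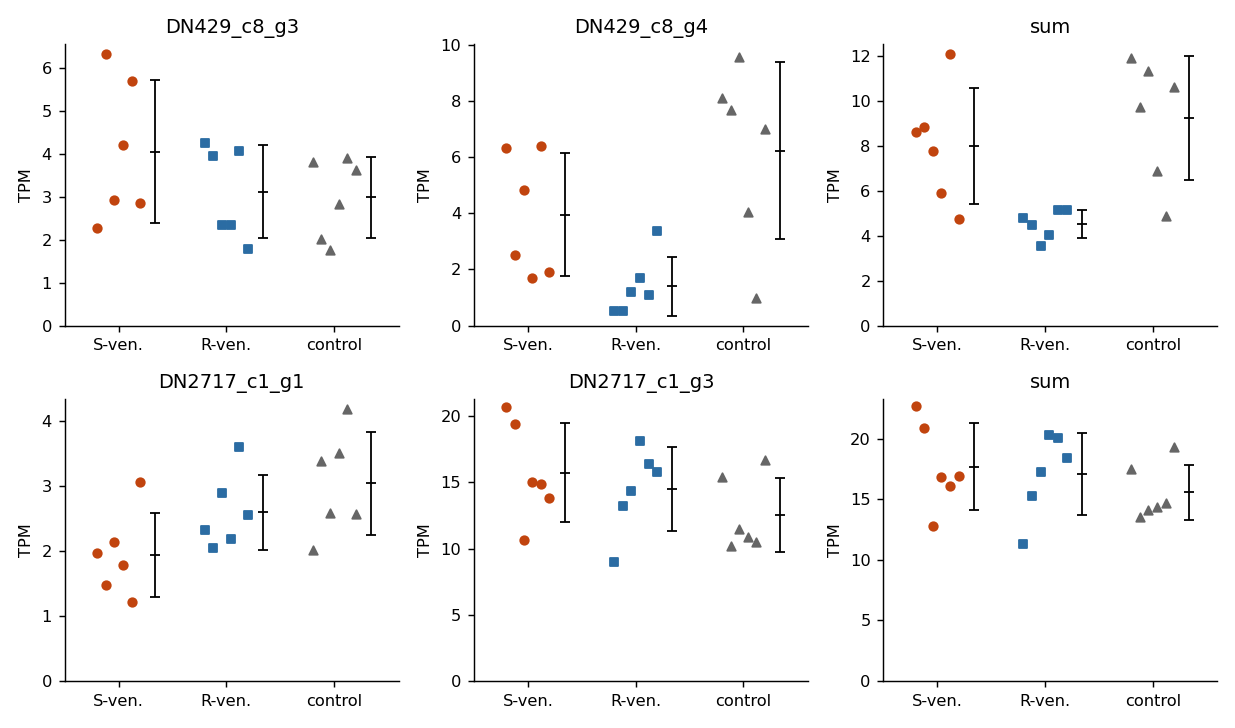
Levels (TPM) of both genes and of their sum in DN429_c8, above, and DN2717_c1, below, with 1 point per fish and the mean ± SD of 6 fish beside each group, S-venlafaxine, R-venlafaxine and control from left to right. The R-venlafaxine fish of DN429_c8_g4 lie between 0.52 and 3.36 TPM, below 5 of the 6 controls, and the S-venlafaxine fish of DN2717_c1_g1 overlap with the controls.

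S-venlafaxine against R-venlafaxine compared the mirror-image forms at the same dose and time. By edgeR 0 of 193 member genes passed, with 0.00167% of all genes tested passing. At an unadjusted p under 0.05 there were 12, or 6.22%, against 3.45% of all. DESeq2 called 0 members, with 0.124% of all genes called, and had 13 members at an unadjusted p under 0.05, with 4.7% of all genes there. By limma 0 of 100 ratios and 0 of 100 sums passed, with 0.0% of all 5052 passing in both, and 4 ratios and 6 sums had an unadjusted p under 0.05, against 4.55% and 3.25% of all. The lowest p for a ratio was that of DN348_c2, at a log2 difference of -5.98 (SE 2.09, 95% interval -10.40 to -1.56, limma adjusted p = 0.996), with g2 high in 4 S-venlafaxine fish and in 1 R-venlafaxine fish. The lowest for a sum was that of DN429_c8, at 0.76 (SE 0.228, 95% interval 0.28 to 1.24, limma adjusted p = 1), with 4.75 to 12.1 TPM in S-venlafaxine fish and 3.53 to 5.15 TPM in R-venlafaxine fish. DN10186_c1, the pair with the lowest variance ratio, had a log2 ratio difference of 3.40 between the forms (SE 2.47, 95% interval -1.82 to 8.61, limma adjusted p = 0.996).

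What the tests could show differed by quantity. For the sums, 89 of the 100 pairs in S-venlafaxine against control, 88 in R-venlafaxine against control and 89 between the forms had a 95% interval that stayed inside a 2-fold change up or down. For the ratios this held in 23, 19 and 18 pairs. For the 193 member genes the share was 58.5%, 61.1% and 58.5%. A shift of more than 2-fold in the sum was therefore outside the interval for most pairs. For the ratio, a shift of that size was inside the interval for most pairs. Choosing pairs for opposition tends to lower the variance of a sum and raise that of a ratio. This contrast between sums and ratios therefore follows in part from the choice. These counts were not made over all 5052 pairs. The 3 comparisons share their groups, so their values are not independent of each other.

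**Figure D5:**
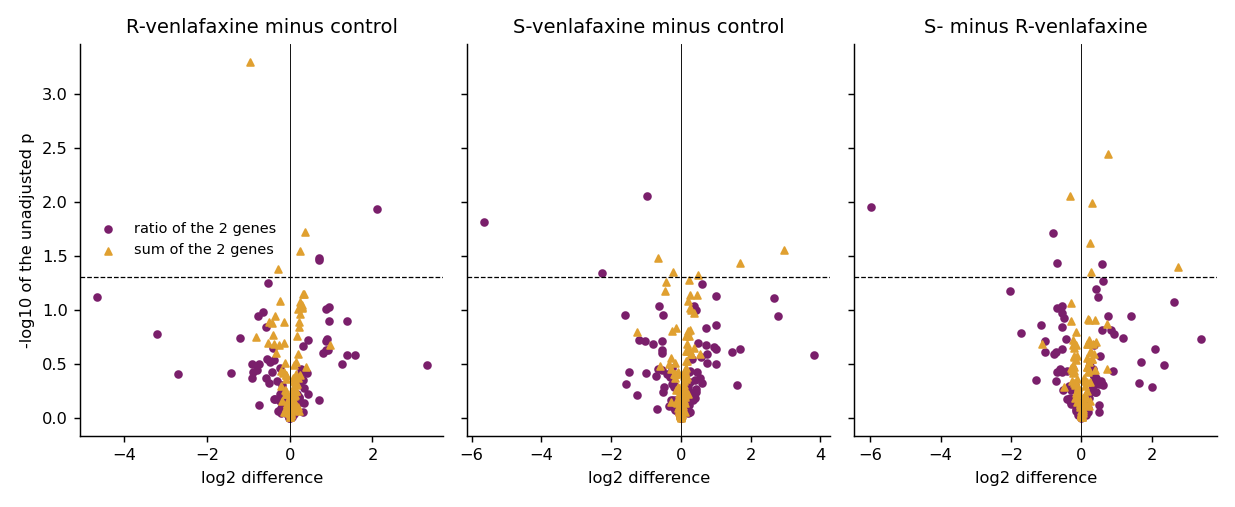
R-venlafaxine against control (left), S- against control (middle) and S- against R-venlafaxine (right), with the −log10 of the unadjusted limma p against the log2 difference for the ratio of the 2 genes (purple circles) and the sum (orange triangles) of the 100 pairs, with a dashed line at an unadjusted p of 0.05. From left to right, 3, 3 and 4 of the 100 ratios and 4, 5 and 6 of the 100 sums lie above the line. No adjusted p was under 0.05.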

How the data were processed

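Liver polyA RNA of 18 fish was sequenced from strand-preserving libraries made with a NEBNext Ultra II Directional kit, according to the labels. Reads went through Trimmomatic 0.36, Bowtie2 2.2.7 and RSEM 1.3.1 per the submitters' processing notes, and what settings were used is not given in the sources used here. Of the processed data, the authors deposited a table of TPM, not normalised across libraries and listed in steps of 0.01, and a table of estimated counts. In 99.977% of values an estimated count, taken as a share of its library and put on the TPM scale, was within 0.0055 of the deposited TPM. The counts are therefore rescaled TPM, and count models on them are approximate. Whether the totals of 43.8 to 65.6 M counts per library equal numbers of reads is not known. Single counts are not numbers of reads, so no counting interval is given.

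Rank correlations, shares, CVs and variance ratios were computed on TPM as deposited (Python 3.11.15 with pandas 2.3.3, numpy 2.4.6 and scipy 1.17.1). Estimated counts were rounded to whole numbers, filtered by group (filterByExpr, minimum count 10, minimum total 15), scaled by TMM and tested with edgeR 4.0.16 in R 4.3.3 on all 18 libraries with group means. Ratios and sums of all 5052 pairs were tested with limma 3.58.1 (robust, pseudocount 0.1 TPM, with a trend for sums). All tests were two-sided with Benjamini-Hochberg adjustment over all genes or pairs. DESeq2 1.42.0, other scalings, filters, pseudocounts, share and CV limits, blocks and leaving out each fish were alternatives. The fits were tested on simulated data with known changes. The members, lists and tests were chosen with earlier results of these data known. Pairs named with values were the 4 with the most negative rank correlation, the 3 lowest and 2 highest in variance ratio, the 2 highest in summed mean, the 2 with the most fish on both sides of a full replacement, the component with the most pairs, both neighbours of the limit, and the lowest limma p of the ratio for each exposure against control. Same-numbered fish were not taken as paired. No sequences are shown, since none of the files used here holds them.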

Additional observations from a re-analysis of the deposited data

Results flagged for a closer look

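Within-group sums of the named pairs were searched for a fish whose gap to the nearest other fish, divided by the range of its group, exceeded Dixon's 95% critical value for 6 fish. Chance gives about 1 such group in 20 where the groups are independent and their values normally distributed, and 5 of 60 were found. The named pairs were partly picked for extreme values, and those of DN944_c0 share genes. That rate need not hold here, and no conclusion is drawn from the number. The cause was not tested in any of the 5. R-venlafaxine fish 1 stood apart below its group by this measure in 2 pairs. The sum of DN147_c4_g1 and g3 was 29.07 TPM there, and 43.36 TPM in the next fish. The sum of DN944_c0_g2 and g6 was 26.63 TPM there, and 46.98 TPM in the next fish. Control 3 stood apart above its group by this measure in 2 pairs. The sum of DN3051_c0_g1 and g2 was 18.51 TPM there, and 9.5 TPM in the next control. The sum of DN348_c2_g1 and g2 was 76.71 TPM there, and 2.32 TPM in the next control. The same pair had 69.92 TPM in R-venlafaxine fish 3 and 2.64 TPM in the next fish of that group. Of 12 groups of per-fish counts over the 100 pairs, 0 stood out in this way.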

How the results depend on the processing

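The choice of pairs depended most on the scale. With TMM-scaled TPM, whose factors ran from 0.854 to 1.14, 46 of the 100 pairs remained among the 100 most negative, although the rank correlation stayed below 0 in 99 of them. With group means removed 62 remained, with Pearson's r of TPM 65, and on leaving out 1 fish at a time 76 to 84. The median variance ratio was 0.7298 with TMM scaling, 0.3122 on the log2 scale (the variance of the log2 sum over the mean, not the sum, of the log2 variances of both genes), and 0.7041 to 0.7203 on leaving out 1 fish. That ratio moved by over 1.5 times in 5 pairs, to 0.191 in DN3828_c0 without control 3, 0.422 in DN2401_c0 without R-venlafaxine 1, 0.235 in DN6302_c0 without S-venlafaxine 1, 0.395 in DN1170_c0 without S-venlafaxine 2 and 0.447 in DN907_c2 without S-venlafaxine 6. Full replacement was found in 16 pairs at a share limit of 80% and in 5 under every other alternative run. An even sum was found in 35 to 59. These alternatives were counted in the 100 pairs alone. TMM scaling divides both genes by the same factor and cannot change a share, so it is no check on full replacement. DESeq2 called 1 member gene for R-venlafaxine against control. All other alternatives gave 0 members called for genes, ratios and sums in the 3 comparisons, with a lowest adjusted p of 0.0954 (limma, sum of DN429_c8, R-venlafaxine against control, leaving out 1 fish). The edgeR fit without a filter on low counts is no usable check. For R-venlafaxine against control it had 95248 of 288593 genes at an unadjusted p under 0.05, against 1933 of 59733 in the main fit. The fit with a replicate block called 0 genes, ratios and sums. Same-numbered fish correlated at -0.0568 to 0.0982 in their deviations over 18 pairs of libraries. Of 18 libraries, 6 correlated best with one of their own number. How many would do so without any pairing was not worked out, so this number does not decide the question. The labels give no pairing, and the fits without the block stand as the results. Values are listed in steps of 0.01 TPM, which limits the shares of pairs with low sums.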
